A study of Mus musculus with 6 samples.

Results

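The urea cycle and ammonia handling genes of mouse liver were followed as 10 transcripts, Cps1, Otc, Ass1, Asl, Arg1, Nags, Slc25a15, Slc25a13, Gls2 and Glul. They were picked by gene symbol from the deposited expression table and linked by gene identifier to the read counts, so they are 10 of 47729 counted genes. All 10 passed the filter on low counts, which left 13767 genes. RNA was sequenced from 3 liver samples labelled as Atoh8 knockdown (shAtoh8 in the series design) and 3 controls (titled WT, and named shNC in the design). All came from C57BL/6 mice fed a diet with 0.1% DDC for 17 days. DDC blocks heme synthesis and causes bile duct injury, and since the controls received it too, every value describes a liver on DDC. Atoh8 is a transcription factor of the basic helix-loop-helix class. The labels name hepatocyte as the cell type, but the protocol describes RNA from removed livers. Age, sex, the delivery of the short hairpin and whether replicates were separate animals are not stated in the labels. The samples are called livers below, without a claim that each was a separate liver. The p-values thus rest on the spread among 6 samples, which may be technical.

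The urea cycle turns toxic ammonia into urea. Its first steps, carbamoyl phosphate synthesis by Cps1 and its joining to ornithine by Otc, run in the mitochondrial matrix, and the later steps, by Ass1, Asl and Arg1, run in the cytosol, so ornithine, citrulline and aspartate must cross the inner mitochondrial membrane. In the liver lobule the cycle and the glutaminase Gls2 are periportal, whereas the narrow ring of hepatocytes around the central vein expresses glutamine synthetase, Glul, and captures the ammonia that escaped the cycle.

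In the Atoh8 knockdown livers 9 of the 10 genes had lower fitted levels than in the controls and Otc did not, but none of the 10 passed the edgeR quasi-likelihood test with Benjamini-Hochberg adjustment over all genes when all 6 libraries were used. A gene is named as called where the adjusted p is under 0.05. Fold changes were negative for 54.7% of all tested genes. The median log2 fold change of the 10 genes was -0.69, beside -0.052 over all tested genes. At an unadjusted p under 0.05, 4 of the 10 were lower (Slc25a13, Arg1, Cps1 and Asl) and 0 higher, where 5.4% of all tested genes were lower. By adjusted p edgeR called 0.123% of all genes lower and 0.741% higher. For the 4 genes with an unadjusted p under 0.05, every knockdown library lay below every control library, as it did for 1382 of the 13767 tested genes, while 1792 were higher in every knockdown library. Groups without overlap in either direction thus made up 23.1% of all tested genes and 4 of the 10. DESeq2 called 3 of the 10 lower (Cps1, Arg1 and Slc25a13) where it called 2.16% of all genes lower and 4.62% higher. The DESeq2 adjusted p was 0.0463 for Cps1, 0.0332 for Arg1, 0.0445 for Slc25a13 and 0.0602 for Asl. Limma-voom with quality weights called 5 lower (those 3 with Asl and Glul), where it called 18.2% of all genes lower and 18.7% higher.

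Control replicate 1 stood apart from the other libraries and bears on the values of all 10 genes. The first principal component, with 48.2% of the variance, set it against control replicates 2 and 3, while the knockdown libraries lay between them, and the second, with 36.4%, separated the groups. Each library held between 31912058 and 37969644 reads in genes. Atoh8 itself stood at 10.2, 9.82 and 5.64 CPM in knockdown replicates 1 to 3, against 63.7, 16.8 and 16.4 CPM in control replicates 1 to 3, lower in every knockdown library, with a log2 fold change of -1.92 (SE 0.58, edgeR adjusted p = 0.197) and of -0.95 (SE 0.23, edgeR adjusted p = 0.0115) without control replicate 1. Of the 10 genes, 7 were higher in control replicate 1 than in both other controls and 3 (Otc, Slc25a13 and Glul) were lower than in both. With that library left out, edgeR called 3 of the 10 lower, Slc25a13, Arg1 and Cps1, and 0 higher, where it called 16.1% of all genes lower and 16.5% higher. Fold changes were then negative for 9 of the 10 (all but Nags) and for 49.2% of all tested genes. The median log2 fold change of the 10 was then -0.52, beside 0.012 over all tested genes. Every knockdown library lay below both remaining controls for 5 of the 10, with Glul added to the 4 named above, where this held for 29.9% of all genes and the opposite for 28.7%. With an added offset for GC content and transcript length, an alternative chosen after seeing the data, 4 of the 10 were called lower (Slc25a13, Asl, Gls2 and Arg1), where 15.6% of all genes were called lower and 14.3% higher. Leaving out any other single library, edgeR called 0 of the 10, where it called at most 1 gene lower and at most 20 higher over all genes. Among the knockdown libraries, replicate 2 had the highest CPM of all 10 genes, and without it both remaining libraries lay below every control for 8 of the 10, where this held for 15.0% of all genes and the opposite for 18.1%.

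**Figure D1:**
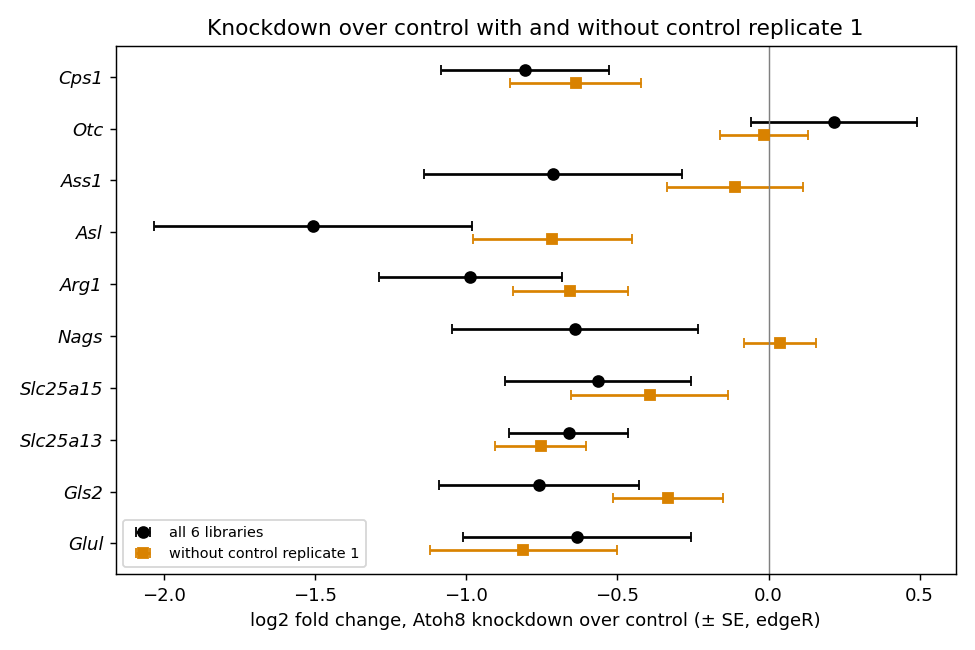
Log2 fold change (Atoh8 knockdown over control, edgeR, bars ± SE) of the 10 genes with all 6 libraries (black circles) and without control replicate 1 (orange squares). Asl moved most between the fits, with -1.51 for all libraries and -0.71 without control replicate 1, while Slc25a13 stood at -0.66 and -0.75 and Otc at 0.22 and -0.014.

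The region upstream of the transcription start was available from RefSeq (GRCm38.p6) for 6 of the 10 genes, in 7 windows of 250 bases before to 50 after the start: Otc, Ass1, Nags, Slc25a15 (with 2 starts), Slc25a13 and Glul. For 3 genes the 250 bases before the start are given, 5′ to 3′ on the gene's own strand. They are Slc25a13, which had the smallest p of the 10, Glul, the pericentral gene, and Otc, the gene whose fitted level was not lower. Slc25a13 and Otc were thus picked by their values in these data. Capitals mark CCAAT, the core bound by the factor NF-Y, and TGACG, the opening letters of the cyclic AMP response element TGACGTCA and so part of every match to it, on either strand.
Slc25a13 promoter, chr6:6217174-6217423, minus strand: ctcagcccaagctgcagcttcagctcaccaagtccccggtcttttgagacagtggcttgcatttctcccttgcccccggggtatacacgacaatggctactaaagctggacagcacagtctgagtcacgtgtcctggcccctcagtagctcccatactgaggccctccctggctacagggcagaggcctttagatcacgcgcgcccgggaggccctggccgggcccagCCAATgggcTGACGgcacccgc
Glul promoter, chr1:153899679-153899928, plus strand: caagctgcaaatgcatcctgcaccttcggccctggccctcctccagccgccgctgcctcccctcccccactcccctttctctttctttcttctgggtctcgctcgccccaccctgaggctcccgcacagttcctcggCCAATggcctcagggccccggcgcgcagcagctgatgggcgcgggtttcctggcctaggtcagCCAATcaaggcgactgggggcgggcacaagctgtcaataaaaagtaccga
Otc promoter, chrX:10252055-10252304, plus strand: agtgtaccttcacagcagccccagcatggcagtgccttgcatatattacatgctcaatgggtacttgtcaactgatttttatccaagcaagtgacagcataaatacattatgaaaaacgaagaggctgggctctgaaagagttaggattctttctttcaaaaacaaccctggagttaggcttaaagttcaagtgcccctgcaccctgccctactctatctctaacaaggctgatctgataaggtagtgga
In the windows of 300 bases CCAAT occurred in Slc25a13, 22 bases before the start, and in Glul, 113 and 50 bases before the start (counted to the motif's first base), and in 37.4% of 32851 promoter windows of the same length. TGACG occurred in Slc25a13 and, in the full window, Nags, and in 20.8% of all windows. The C/EBP motif TTGCNNAA, the full element TGACGTCA and the TATA box TATAAA were found in 0 of the 7 windows on either strand, and in 10.8%, 1.79% and 13.6% of all windows. The E-box CANNTG, the class of motif bound by basic helix-loop-helix proteins, occurred in all 7 windows and in 72.3% of all windows. A match describes letters in these windows only.

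Of the mitochondrial enzymes, Cps1 was lower in every knockdown library, while Otc and Nags overlapped between the groups. Cps1 (ENSMUSG00000025991, GRCm38 chromosome 1, 67123026 to 67231259, plus strand), the carbamoyl phosphate synthetase that commits ammonia to the cycle, stood at 5139.7, 7576 and 4885 CPM in knockdown replicates 1 to 3, against 12359, 9554 and 8863 CPM in control replicates 1 to 3, where CPM is the read count scaled to library size with TMM factors. All 3 knockdown libraries lay below the lowest control. Cps1 averaged 5867 ± 1485 CPM in the knockdown livers and 10258 ± 1851 CPM in the controls (SD, n = 3 each), 57.2% of the control mean. Its log2 fold change was -0.81 (SE 0.28, edgeR adjusted p = 0.247), and -0.64 (SE 0.22, edgeR adjusted p = 0.0468) without control replicate 1.

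Otc (ENSMUSG00000031173, GRCm38 chromosome X, 10252305 to 10321024, plus strand), the ornithine transcarbamylase that makes citrulline, stood at 228, 278 and 257 CPM in knockdown replicates 1 to 3, against 137, 269.8 and 249 CPM in control replicates 1 to 3. Control replicate 1 was the lowest library and the other 5 lay between 228 and 278 CPM. Its log2 fold change was 0.22 (SE 0.28, edgeR adjusted p = 0.767), and -0.014 (SE 0.15, edgeR adjusted p = 0.953) without control replicate 1. Nags (ENSMUSG00000048217, GRCm38 chromosome 11, 102145513 to 102149477, plus strand) makes N-acetylglutamate, the activator that Cps1 requires. It stood at 60.2, 63.2 and 55.7 CPM in knockdown replicates 1 to 3, against 162, 59.9 and 57.6 CPM in control replicates 1 to 3. Control replicate 1 lay far above the other 5 libraries, and the log2 fold change of -0.64 (SE 0.41, edgeR adjusted p = 0.536) became 0.038 (SE 0.12, edgeR adjusted p = 0.836) without it. Nags shares 15.6% of its exonic bases with the antisense gene Gm11586, and counting by strand is not stated, so its reads are less certain.

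Of the cytosolic enzymes, Asl and Arg1 were lower in every knockdown library and Ass1 was not. Ass1 (ENSMUSG00000076441, GRCm38 chromosome 2, 31470207 to 31520672, plus strand), the argininosuccinate synthetase that brings in the second nitrogen as aspartate, stood at 2601, 4309.7 and 2848 CPM in knockdown replicates 1 to 3, against 8893, 3376 and 3714 CPM in control replicates 1 to 3. Knockdown replicate 2 lay above control replicates 2 and 3, so the groups overlapped, and the log2 fold change of -0.71 (SE 0.43, edgeR adjusted p = 0.510) became -0.11 (SE 0.23, edgeR adjusted p = 0.741) without control replicate 1. Asl (ENSMUSG00000025533, GRCm38 chromosome 5, 130011258 to 130029247, minus strand), the argininosuccinate lyase that releases arginine and fumarate, stood at 335, 629 and 314 CPM in knockdown replicates 1 to 3, against 2223, 698 and 711 CPM in control replicates 1 to 3. Its knockdown libraries were all below the controls, but control replicate 1 lay far above the other controls. Asl had the most negative log2 fold change of the 10 with all libraries, -1.51 (SE 0.53, edgeR adjusted p = 0.254), and -0.71 (SE 0.26, edgeR adjusted p = 0.0612) without control replicate 1, so it was called in neither fit.

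Arg1 (ENSMUSG00000019987, GRCm38 chromosome 10, 24915221 to 24927484, minus strand) encodes the liver arginase that splits arginine into urea and ornithine. It stood at 1152, 1711 and 1297 CPM in knockdown replicates 1 to 3, against 3835, 2131 and 2280.2 CPM in control replicates 1 to 3. The groups did not overlap, with or without control replicate 1. Arg1 averaged 1387 ± 289.8 CPM in the knockdown livers and 2749 ± 944 CPM in the controls (SD, n = 3 each), 50.4% of the control mean. The log2 fold change was -0.99 (SE 0.30, edgeR adjusted p = 0.200) with all libraries, and -0.66 (SE 0.19, edgeR adjusted p = 0.0251) without control replicate 1. Arg1 is also made by alternatively activated macrophages and by neutrophils. The summed level of 12 macrophage markers was 536 to 645 CPM in the knockdown livers and 307 to 633 CPM in the controls, where the highest was control replicate 1 and the other two had 335 and 307 CPM, below every knockdown library. The 6 neutrophil markers together were below 1 CPM in every library, with Ly6g at 0. The part of these cells in the Arg1 values was not tested. In these samples, labelled hepatocyte but described in the protocol as removed livers, fewer hepatocytes and less RNA per hepatocyte cannot be told apart.

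**Figure D2:**
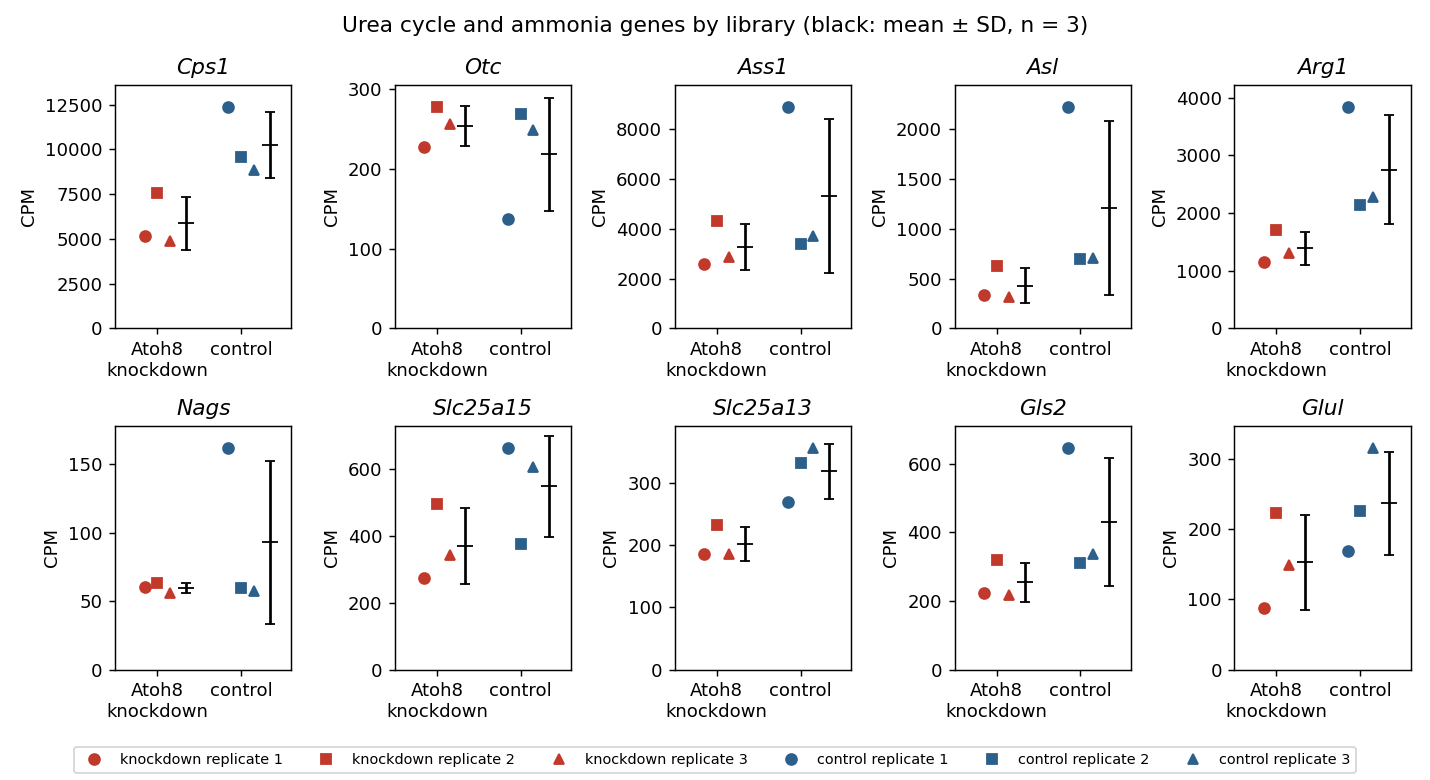
CPM (linear axes from 0) of the 10 genes in each library, Atoh8 knockdown in red and control in blue, with circles, squares and triangles for replicates 1 to 3 and the group mean ± SD (n = 3) in black. Cps1, Asl, Arg1 and Slc25a13 have no overlap between groups, and control replicate 1 lies above both other controls in 7 panels.

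Of the mitochondrial carriers, Slc25a13 was lower in every knockdown library and Slc25a15 was not. Slc25a13 (ENSMUSG00000015112, GRCm38 chromosome 6, 6041218 to 6217173, minus strand) encodes citrin, which exports aspartate from mitochondria in exchange for glutamate and so supplies Ass1. It stood at 186, 233 and 186 CPM in knockdown replicates 1 to 3, against 269.9, 331 and 355 CPM in control replicates 1 to 3. Every knockdown library was below every control, and control replicate 1 was the lowest control. Slc25a13 averaged 202 ± 26.9 CPM in the knockdown livers and 319 ± 44.0 CPM in the controls (SD, n = 3 each), 63.2% of the control mean. Its log2 fold change was -0.66 (SE 0.20, edgeR adjusted p = 0.195) with all libraries and -0.75 (SE 0.15, edgeR adjusted p = 0.00467) without control replicate 1, which was the smallest adjusted p of the 10 in both edgeR fits. Slc25a15 (ENSMUSG00000031482, GRCm38 chromosome 8, 22375551 to 22398597, minus strand), the carrier that exchanges ornithine for citrulline, stood at 273, 495 and 343 CPM in knockdown replicates 1 to 3, against 661, 376 and 606 CPM in control replicates 1 to 3. Knockdown replicate 2 lay above control replicate 2, so the groups overlapped. Its log2 fold change was -0.56 (SE 0.31, edgeR adjusted p = 0.463), and -0.39 (SE 0.26, edgeR adjusted p = 0.279) without control replicate 1.

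Both glutamine enzymes, which sit at opposite ends of the lobule, had negative fold changes and neither passed. Gls2 (ENSMUSG00000044005, GRCm38 chromosome 10, 128194457 to 128210004, plus strand), the liver glutaminase that feeds ammonia to Cps1, stood at 225, 321 and 217 CPM in knockdown replicates 1 to 3, against 645, 309.7 and 336 CPM in control replicates 1 to 3. Knockdown replicate 2 lay between control replicates 2 and 3, and control replicate 1 was the highest library. The log2 fold change of Gls2 was -0.76 (SE 0.33, edgeR adjusted p = 0.352), and -0.33 (SE 0.18, edgeR adjusted p = 0.189) without control replicate 1. Glul (ENSMUSG00000026473, GRCm38 chromosome 1, 153899944 to 153909723, plus strand), the glutamine synthetase, stood at 87.0, 222 and 149 CPM in knockdown replicates 1 to 3, against 169, 226 and 315 CPM in control replicates 1 to 3. The knockdown livers spread over a range of 87.0 to 222 CPM, which reached past control replicate 1 but not past control replicates 2 and 3. Its log2 fold change was -0.63 (SE 0.38, edgeR adjusted p = 0.506), and -0.81 (SE 0.31, edgeR adjusted p = 0.0694) without control replicate 1. Gls2 shares 2.79% of its exonic bases with Spryd4, and Glul 3.49% with Teddm2, both on the opposite strand. Glul also shares 2.80% with the microRNA gene Mir8114 on its own strand.

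Per transcript length, in the authors' FPKM, the 10 genes covered a wide range of levels in both groups. Ass1 had the highest mean level, 2033 ± 552 FPKM in the knockdown livers and 3274 ± 1883 FPKM in the controls, and Nags the lowest, 37.3 ± 1.41 FPKM in the knockdown livers and 55.4 ± 35.2 FPKM in the controls. Without control replicate 1 the control mean of Nags was 35.1 FPKM, below the knockdown mean, and that of Otc was 133 FPKM. In the knockdown livers Cps1 (1067 ± 285 FPKM, SD, n = 3) and Arg1 (1021 ± 213 FPKM) followed Ass1 and did not differ beyond their spread, and Asl came next (264 ± 113 FPKM). Otc, Gls2 and Slc25a15 lay within their spread of each other at 122 ± 14.4, 121 ± 29.1 and 118 ± 37.5 FPKM, as did Slc25a13 and Glul at 70.7 ± 9.75 and 66.7 ± 29.2 FPKM. In the controls the order ran Ass1, Arg1, Cps1, Asl, Gls2, Slc25a15, Slc25a13, Otc, Glul and Nags by mean FPKM, so Otc ranked 5 in the knockdown livers and 8 in the controls. Otc stood at 122 ± 14.4 FPKM in the knockdown livers and 112 ± 35.8 FPKM in the controls, and Arg1, which ranked 3 and 2, at 1021 ± 213 FPKM in the knockdown livers and 2075 ± 735 FPKM in the controls. In the controls the levels of Arg1 and Cps1 again lay within their spread of each other, as did those of Gls2 and Slc25a15 and those of Slc25a13, Otc and Glul.

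Differences within a library do not depend on library scaling. The mean log2 FPKM of the 9 periportal genes minus the log2 FPKM of Glul was 2.41, 1.63 and 1.72 in knockdown replicates 1 to 3, against 2.77, 1.65 and 1.23 in control replicates 1 to 3. It averaged 1.92 ± 0.43 in the knockdown livers and 1.88 ± 0.80 in the controls (SD, n = 3 each), a difference of 0.039 that was smaller than the spread within either group. Without control replicate 1 the control mean was 1.44 and the difference 0.48, with knockdown replicate 2 still below control replicate 2. The groups overlapped in this balance of periportal genes and Glul with and without control replicate 1. Within the cycle, Otc relative to Cps1 did not overlap between the groups: its log2 FPKM minus that of Cps1 was -3.06, -3.32 and -2.92 in knockdown replicates 1 to 3, against -5.01, -3.70 and -3.68 in control replicates 1 to 3. The knockdown libraries all lay above the controls, a difference given as a description and not tested, and the means were -3.10 ± 0.21 in the knockdown livers and -4.13 ± 0.77 in the controls (SD, n = 3 each), a difference of 1.03. Without control replicate 1 the control mean was -3.69 and the difference 0.59. Cps1 was itself lower in every knockdown library. The share of all genes that separated the groups relative to Cps1 was not computed, so this separation has no reference. Arg1 relative to Cps1 averaged -0.052 ± 0.16 in the knockdown livers and 0.076 ± 0.24 in the controls (SD, n = 3 each) on the same scale, and the groups overlapped. Ass1 relative to Cps1 was 0.76, 0.93 and 1.09 in knockdown replicates 1 to 3, against 1.23, 0.26 and 0.44 in control replicates 1 to 3. Its groups overlapped with all libraries. Without control replicate 1 they did not, and the difference was 0.58, near the 0.59 of Otc. Asl relative to Cps1 differed by -0.55, and by -0.13 without control replicate 1, with overlapping groups.

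**Figure D3:**
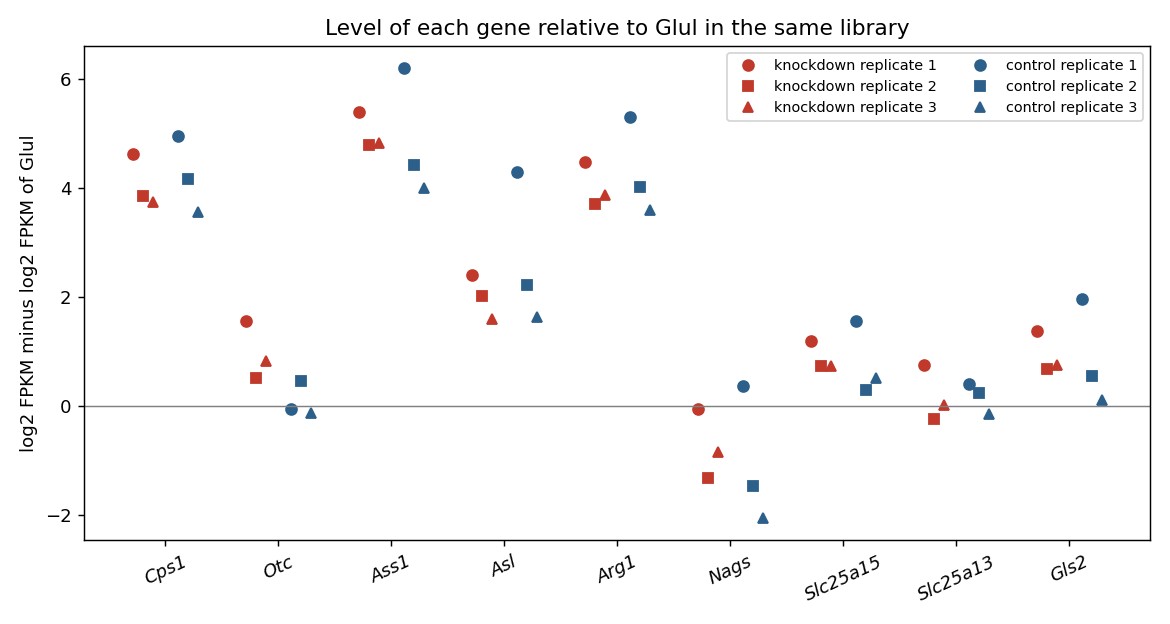
Log2 FPKM of each of the 9 periportal genes minus log2 FPKM of Glul in the same library (knockdown red, left; control blue, right; circles, squares and triangles for replicates 1 to 3). The groups overlap for 8 of the 9 genes. For Otc every knockdown library (1.56, 0.52 and 0.82) lies above every control (-0.063, 0.46 and -0.13). Without control replicate 1, 5 of the 9 (Otc, Ass1, Nags, Slc25a15 and Gls2) have every knockdown library above both controls. Glul, which is subtracted from each, was then itself lower in every knockdown library than in both controls. The share of all genes separated in this way relative to Glul was not computed, so these counts have no reference.

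The genes whose profiles over the 6 libraries lay nearest to those of Cps1 and Glul were sought among the 7692 genes that averaged 10 CPM or more, by the root mean square difference of log2 CPM after centring each gene. Nearest to Cps1 were Upb1, a pyrimidine breakdown enzyme, at 0.061, Cyp4f15, a cytochrome P450, at 0.080, and Gys2, the liver glycogen synthase, at 0.083. Of the other 9 genes described here, Arg1 lay nearest to Cps1, at 0.17 and rank 77, followed by Gls2 at 0.21 and rank 167, while Otc lay farthest, at 0.72 and rank 5728. Nearest to Glul were Tmtc2 at 0.16, Slc1a2, which encodes a glutamate transporter of the same pericentral hepatocytes, at 0.19, and Phospho2 at 0.23. Of the 9 periportal genes, Slc25a13 lay nearest to Glul, at 0.34 and rank 46, followed by Slc25a15 at 0.42 and rank 220. Asl lay farthest from Glul, at 0.89 and rank 6764. Slc1a2 stood at 32.0, 71.0 and 58.7 CPM in knockdown replicates 1 to 3, against 53.9, 102 and 101 CPM in control replicates 1 to 3, lowest in knockdown replicate 1 and higher in control replicates 2 and 3 than in the other libraries. Likeness over 6 libraries describes these samples only.

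**Figure D4:**
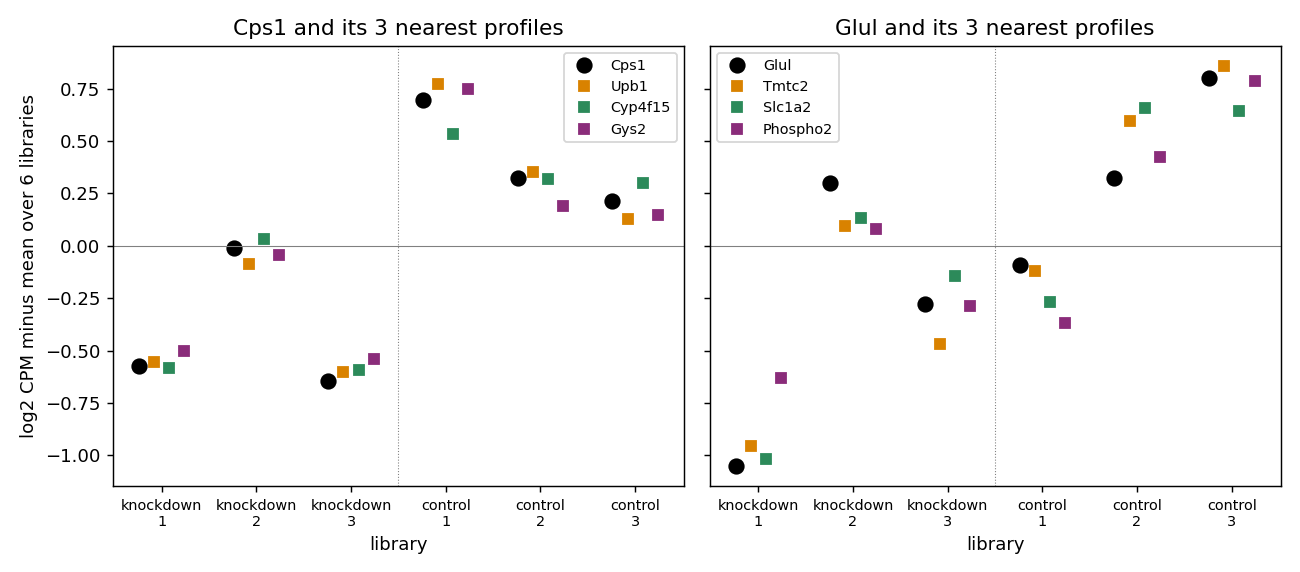
Log2 CPM minus its mean over the 6 libraries for Cps1 (left) and Glul (right), as black circles, with the 3 genes of nearest profile as coloured squares, knockdown libraries left of the dotted line and controls right of it. Cps1 and its neighbours are highest in control replicate 1, whereas Glul and its neighbours are lowest in knockdown replicate 1.

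Of 35 further genes that supply nitrogen to the cycle or use its intermediates, 31 were tested, and edgeR with all libraries called 0 of them; 20 had negative and 11 positive fold changes, with a median of -0.27. At an unadjusted p under 0.05, 5 were lower and 3 higher, where 5.4% of all tested genes were lower. The share of all genes higher at that threshold was not computed, so the count higher has no reference. From the same 6 libraries DESeq2 called 3 lower and 2 higher (Odc1, Gpt and Got1 against Aldh18a1 and Slc7a7, of which Got1 and Slc7a7 were named after their values were seen), limma-voom 8 lower and 5 higher, and edgeR with an offset for GC content and length 2 lower and 1 higher. Over all genes that offset called 0.872% lower and 2.88% higher, DESeq2 2.16% lower and 4.62% higher, and limma-voom 18.2% lower and 18.7% higher. Without control replicate 1, a fit that called 16.1% of all genes lower and 16.5% higher, edgeR called 6 lower and 4 higher, and the median was 0.027. The smallest p belonged to Aldh18a1, the enzyme that opens proline and ornithine synthesis from glutamate, at 9.76, 4.75 and 10.2 CPM in knockdown replicates 1 to 3, against 2.05, 2.06 and 2.70 CPM in control replicates 1 to 3. It was higher in every knockdown library, with a log2 fold change of 1.86 (SE 0.35, edgeR adjusted p = 0.0707) and of 1.81 (SE 0.35, edgeR adjusted p = 0.00399) without control replicate 1. Odc1, the ornithine decarboxylase of polyamine synthesis, was lower in every knockdown library and averaged 58.1 ± 1.56 CPM in the knockdown livers and 103 ± 11.4 CPM in the controls (SD, n = 3 each). Its log2 fold change was -0.83 (SE 0.17, edgeR adjusted p = 0.0832), and -0.72 (SE 0.12, edgeR adjusted p = 0.00170) without control replicate 1. Gpt, an alanine aminotransferase, was also lower in every knockdown library, with log2 fold changes of -1.01 (SE 0.27, edgeR adjusted p = 0.158) and, without control replicate 1, -0.71 (SE 0.17, edgeR adjusted p = 0.0104). Glud1, the glutamate dehydrogenase that releases ammonia in mitochondria, stood at 1227, 1250.1 and 1117 CPM in knockdown replicates 1 to 3, against 1168, 1313 and 1580.1 CPM in control replicates 1 to 3, with overlapping groups and a log2 fold change of -0.18 (SE 0.20, edgeR adjusted p = 0.739).

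The close relatives Arg2, Slc25a2 and Slc25a12 were low in CPM or had overlapping groups. Arg2, the mitochondrial arginase, stood at 0.678, 0.366 and 0.815 CPM in knockdown replicates 1 to 3, against 0.298, 0.0860 and 0.292 CPM in control replicates 1 to 3, higher in every knockdown library, and its log2 fold change of 1.46 (SE 0.61, edgeR adjusted p = 0.335) rested on few reads. Its adjusted p with all libraries was 0.254 by DESeq2 and 0.0234 by limma-voom, which called it higher. Slc25a2, the second ornithine carrier, had at most 5 reads in a library and was not tested. Slc25a12, the aspartate carrier related to citrin, stood at 23.7 ± 0.790 CPM in the knockdown livers and 26.7 ± 9.83 CPM in the controls (SD, n = 3 each), and did not pass (edgeR adjusted p = 0.815). Among the pericentral partners of Glul, Oat, which degrades ornithine, stood at 269, 754 and 492 CPM in knockdown replicates 1 to 3, against 1310.2, 792 and 522 CPM in control replicates 1 to 3, with overlapping groups. Slc1a2 had a log2 fold change of -0.67 (SE 0.36, edgeR adjusted p = 0.462), and -0.90 (SE 0.26, edgeR adjusted p = 0.0241) without control replicate 1, and Rhbg, an ammonium transporter, of 0.67 (SE 0.51, edgeR adjusted p = 0.611).

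Other genes of the same zones had fold changes of both signs. Of 15 further periportal genes, edgeR with all libraries called 0 and the median log2 fold change was -0.29. At an unadjusted p under 0.05, 4 were lower and 2 higher, where 5.4% of all tested genes were lower and the share higher was not computed. From the same 6 libraries DESeq2 called 3 lower and 1 higher (Igfals among the lower, Ctsc the higher), limma-voom 3 lower and 2 higher, and edgeR with an offset for GC content and length 1 lower and 0 higher. In that order the fits called 2.16%, 18.2% and 0.872% of all genes lower and 4.62%, 18.7% and 2.88% higher. Leaving out control replicate 1, edgeR called 3 of the periportal genes lower and 2 higher (16.1% and 16.5% of all genes), and the median was -0.19. Ctsc, a lysosomal protease gene, had a log2 fold change of 0.82 (SE 0.17, edgeR adjusted p = 0.0827) and Igfals, a carrier of insulin-like growth factors, of -1.15 (SE 0.24, edgeR adjusted p = 0.0887), and in both cases the groups did not overlap. The groups overlapped for the amino acid enzymes Hal (histidine) and Sds (serine), with log2 fold changes of -0.52 and -0.69, and for the gluconeogenic Pck1, with 0.31 (edgeR adjusted p = 0.708, 0.526 and 0.673). Of 17 pericentral genes, edgeR with all libraries called 0 and the median was -0.49. At an unadjusted p under 0.05, 2 were lower and 1 higher, beside the same 5.4% lower over all tested genes. From the same 6 libraries DESeq2 called 0 lower and 1 higher (Lgr5), limma-voom 6 lower and 1 higher, and edgeR with an offset for GC content and length 0 lower and 0 higher. The shares of all genes called by these fits were those given for the periportal list. Leaving out control replicate 1, edgeR called 6 of the pericentral genes lower and 1 higher (16.1% and 16.5% of all genes), with a median of -0.27. Lgr5, a receptor of the Wnt pathway, was higher in every knockdown library, at 4.14, 5.56 and 5.06 CPM in knockdown replicates 1 to 3, against 2.35, 3.27 and 2.05 CPM in control replicates 1 to 3, with a log2 fold change of 0.94 (SE 0.29, edgeR adjusted p = 0.203). Cyp27a1 and Cyp1a2 were lower in every knockdown library, with log2 fold changes of -0.86 (SE 0.28, edgeR adjusted p = 0.221) and -0.59 (SE 0.24, edgeR adjusted p = 0.326), and Cyp2e1, with overlapping groups, had a log2 fold change of -0.93 (SE 0.47, edgeR adjusted p = 0.424).

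Of 15 receptors and transcription factors that act on liver amino acid genes, edgeR with all libraries called 0 and 13 had negative fold changes, with a median of -0.38. At an unadjusted p under 0.05, 2 were lower and 0 higher, where 5.4% of all tested genes were lower. From the same 6 libraries DESeq2 called 1 lower and 0 higher (Foxa2), limma-voom 5 lower and 0 higher, and edgeR with an offset for GC content and length 0 lower and 0 higher. Over all genes DESeq2 called 2.16% lower and 4.62% higher, limma-voom 18.2% and 18.7%, and the offset 0.872% and 2.88%. Leaving out control replicate 1, edgeR called 5 of the regulators lower and 0 higher (16.1% and 16.5% of all genes), with a median of -0.24. Gcgr, the glucagon receptor, stood at 197, 215 and 164 CPM in knockdown replicates 1 to 3, against 293, 224 and 231 CPM in control replicates 1 to 3, with a log2 fold change of -0.38 (SE 0.20, edgeR adjusted p = 0.447) and non-overlapping groups. Cebpa, the C/EBP-alpha factor whose loss in mice lowers urea cycle enzymes, stood at 276, 216 and 176 CPM in knockdown replicates 1 to 3, against 355, 235 and 305 CPM in control replicates 1 to 3, and Hnf4a at 654, 736 and 575 CPM in knockdown replicates 1 to 3, against 1441, 623 and 746 CPM in control replicates 1 to 3. Both overlapped between the groups and neither passed (edgeR adjusted p = 0.492 and 0.544). Foxa2 and Ppara were lower in every knockdown library, with log2 fold changes of -0.80 (SE 0.24, edgeR adjusted p = 0.197) and -0.42 (SE 0.17, edgeR adjusted p = 0.317).

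**Figure D5:**
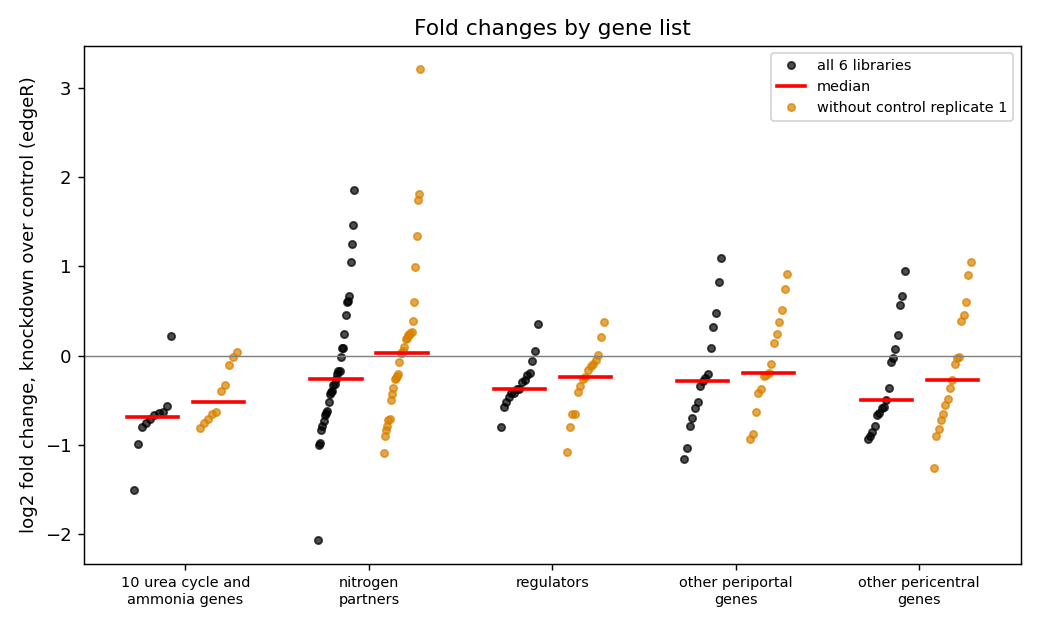
Log2 fold change (Atoh8 knockdown over control, edgeR) of each tested gene in 5 lists, with all 6 libraries (black) and without control replicate 1 (orange), and the list median in red. The median of the 10 urea cycle and ammonia genes is -0.69 with all libraries and -0.52 without control replicate 1, and that of the nitrogen partners -0.27 and 0.027; Oat, Slc1a2 and Rhbg stand in both the partner and the pericentral list.

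Cell type markers were read in the same libraries. Over all 13767 tested genes, 1382 were lower and 1792 higher in every knockdown library. By adjusted p edgeR called 0.123% of them lower and 0.741% higher. The summed level of 6 hepatocyte markers was 97023 to 108802 CPM in the knockdown livers and 94684 to 127409.9 CPM in the controls, and 0 of 6 were called. Most of each sum was Alb alone, at 82468 to 92492 CPM in the knockdown livers and 77112 to 102913 CPM in the controls. The hepatocyte marker Ttr, 1 of the 6, was lower in every knockdown library, at 2906, 3476 and 3081 CPM in knockdown replicates 1 to 3, against 5166, 4008 and 5223 CPM in control replicates 1 to 3. The 9 stellate cell and fibroblast markers summed to 324 to 455 CPM in the knockdown livers and 206 to 219 CPM in the controls, with 5 of 9 higher in every knockdown library and 1 of 9 called, Acta2, at 1.26, 0.940 and 1.09 CPM in the knockdown livers and at most 0.0331 CPM in the controls. The 9 cholangiocyte markers summed to 354 to 580.0 CPM in the knockdown livers and 57.9 to 64.7 CPM in the controls, of which Spp1 gave 322 to 539 CPM in the knockdown livers and 30.7 to 40.8 CPM in the controls. Spp1 was the 1 of 5 tested markers called, while Krt19 and Krt7 stayed below 1 CPM in every library. The 12 macrophage markers, with 0 called and 3 higher in every knockdown library, have their sums given beside Arg1. The 7 endothelial markers summed to 126 to 180.0 CPM in the knockdown livers and 137 to 160.4 CPM in the controls, with 0 called. The 6 markers of T, B and NK cells summed to below 1 CPM in every library, and so did each of the erythroid markers Hbb-bs and Hba-a1. The third erythroid marker, Alas2, stood at 17.7, 21.1 and 18.4 CPM in knockdown replicates 1 to 3, against 12.8, 21.1 and 31.7 CPM in control replicates 1 to 3, with overlapping groups. The part of these cell types in the lower levels of the urea cycle genes was not tested.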

How the data were processed

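RNA was measured in 6 mouse liver samples, 3 with Atoh8 knockdown and 3 controls, grouped and numbered by their titles. Per the labels' protocols, livers were flash frozen, RNA was isolated with Trizol, and Illumina libraries were built. The authors deposited 1 file of raw gene-level counts for every sample, and all samples together in 1 table of FPKM, a unit scaled for transcript length and library size. The submitters' processing notes name, with no role or order, Cufflinks 2.2.1, HTSeq, HISAT2 (version given as 2.10), Trim Galore, FastQC and the build GRCm38 (mm10). The sources used here do not state whether counting used strand. The closing lines of the count files, which name no gene, held 2.48% to 5.66% of reads outside genes and 4.69% to 6.87% ambiguous reads and were left out.

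After filterByExpr and TMM scaling, the groups were compared in R 4.3.3 by edgeR 4.0.16 (quasi-likelihood), with p-values adjusted by Benjamini-Hochberg over all 13767 tested genes. SE is the log2 fold change over the root of the test's F statistic. The script was tested on simulated data. CPM values use TMM-scaled libraries, and 3 reads, the floor for a count of 0, lie below 0.1 CPM; depth intervals would cover counting error only. Coordinates are from GENCODE M21 (GRCm38). Alternatives were median ratio factors, other filters, DESeq2 1.42.0, limma-voom and limma 3.58.1 on log2(FPKM + 1) and log2(FPKM + 0.1), the replicate number as a block, scaling without abundant genes, an offset for GC content and transcript length, and each library left out. The 10 genes, lists and motifs were chosen with earlier results of these data known. Named genes were the 10 genes of the pathway, Atoh8, 15 further genes set by name, the 3 genes of smallest p in each list where none passed, and the 3 nearest profiles of Cps1 and Glul. Got1 and Slc7a7 were named after their values were seen, as were the cell type markers Acta2, Alas2, Alb, Ttr, Spp1, Krt19, Krt7, Ly6g, Hbb-bs and Hba-a1. A few genes that this rule names are not reported here.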

Additional observations from a re-analysis of the deposited data

How the results depend on the processing

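Over 18 alternatives the fold changes of 9 of the 10 genes were negative in 161 of 162 values, the exception being Nags without control replicate 1 (0.038), and that of Otc was positive except by limma-voom (-0.068) and without control replicate 1 (-0.014). With 1 library left out, Otc ranged from -0.014 to 0.39 and Nags from -0.89 to 0.038. The cause of these turns was not tested. The count of the 10 genes called lower, 0 with all libraries, was 3 by DESeq2, 5 by limma-voom, and 4 with the offset for GC content and length in the 5 libraries without control replicate 1, an alternative chosen after seeing the data. With 1 library left out it ranged from 0 to 3 (higher: 0), the count of the 10 lower in every remaining knockdown library from 4 to 8 (8 without knockdown replicate 2; over all genes that share ranged from 11.4% without knockdown replicate 1 to 29.9% without control replicate 1), their median from -0.90 to -0.52, and the periportal minus Glul difference from -0.29 to 0.48; that difference was 0.039 in log2 CPM and -0.15 for Cps1 alone. Left-out libraries gave ranges of 0 to 6 lower and 0 to 4 higher for the nitrogen partners, 0 to 5 lower for the regulators, 0 to 3 lower and 0 to 2 higher for the periportal list, and 0 to 6 lower and 0 to 1 higher for the pericentral list; in each the calls came without control replicate 1. Over all genes edgeR called 17 lower and 102 higher with all libraries, 2284 and 2348 without control replicate 1, 0 and 10 without knockdown replicate 2, 1 and 20 without control replicate 3, and 0 without any of the other libraries. With the replicate number as a block, 0 of the 10 were called and their median was -0.68, with 2 genes lower and 33 higher over all genes. The labels state no pairing, so the numbers were not taken to pair the samples. Same-numbered libraries correlated in their deviations from the group mean at 0.25, -0.08 and 0.29, and differently numbered ones at -0.33 to 0.27. Deviations within a group of 3 are tied to each other, so these values cannot decide on pairing. Among the genes named here with a fold change or a count, depth limits Arg2 and Slc25a2, both below 1 CPM in every library. It also limits Rhbg, which had 12 to 50 reads per library. The call of the marker Acta2 rested on controls at 0 to 0.0331 CPM.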
